A study of Mus musculus with 8 samples.

Results

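The 32 genes described here encode proteins of synaptic vesicles and of the machinery that releases them, and they were chosen by name: SNARE proteins, synaptotagmins, complexins, synapsins, vesicle membrane proteins, Rab3 with its effectors, and scaffolds of the active zone. All 32 were measured, out of 18193 genes with a probe set of their own on the array (a probe set is the group of short probes that reads 1 transcript), and each gene was read from its brightest probe set. Total RNA was taken from brains of C57/BL6 mouse embryos on E12.5 and read on 1-colour Affymetrix expression arrays. Of the 8 arrays, 4 held RNA of *Cre+, Rest GTi/GTi* embryos, which carry the *Nestin Cre* transgene, and these were set against 4 arrays of *Rest GTi/GTi* littermates without Cre (controls hereafter). Both genotypes are homozygous for the same inverted gene trap in *Rest*, which splices normally until Cre, driven by *Nestin* regulatory sequence in neural progenitors, turns it back. Cre and the loss of REST therefore go together on every array and cannot be told apart. Replicates are labelled biological, and it is not stated whether an array holds 1 embryo or several, so the p-values measure only the spread between these arrays.

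Neurons store transmitter in synaptic vesicles. A vesicle is tethered at the active zone by Rab3 and the RIM proteins, made ready by Munc13, and fused with the plasma membrane when synaptotagmin senses calcium and the SNARE proteins zip together. Most of these genes are used far more by neurons than by dividing progenitors. REST is a zinc finger repressor that binds an element called RE1 in and near many neuronal genes, several vesicle genes among them, and the comparison asks whether such genes differ in level in brains whose progenitors lose REST early.

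The RE1 element has a left block, TTCAGCACC, and a right block, GGACAG, commonly separated by 2 unspecified bases. RefSeq promoter windows (GRCm38.p6, 250 bases before to 50 bases after the start) were at hand for 23 of the 32 genes, and the windows of all 27025 genes in that table were searched on both strands, letting any of the 15 fixed letters mismatch. *Syn1* alone among the 23 came within 1 mismatch, as did 18 of the 27025 genes (0.0666%). *Rph3a* came within 2, as did 45 genes (0.167%), and *Unc13a* within 3, as did 365 genes (1.35%). The 3 windows are shown because they come closest to the element whose repressor is lost. They lie at chrX:20920869-20921168 (*Syn1*), chr5:121009489-121009788 (*Rph3a*, 1 of several starts of the gene) and chr8:71671708-71672007 (*Unc13a*), all on the minus strand, and the capitals mark the 17 bases that match best. In *Syn1* the capitals read along the gene's own strand, from 232 to 216 bases before the start. In *Rph3a* and *Unc13a* the best match lies on the opposite strand, so the right block comes first. It runs from 92 to 76 bases before the start of *Rph3a* and from 15 to 31 bases after that of *Unc13a*. In *Unc13a* the left block has no mismatch, and all 3 mismatches fall in the right block. An exact right block, ctgtcc on this strand, stands directly before the capitals, at a wider gap than the 2 bases searched.
Syn1: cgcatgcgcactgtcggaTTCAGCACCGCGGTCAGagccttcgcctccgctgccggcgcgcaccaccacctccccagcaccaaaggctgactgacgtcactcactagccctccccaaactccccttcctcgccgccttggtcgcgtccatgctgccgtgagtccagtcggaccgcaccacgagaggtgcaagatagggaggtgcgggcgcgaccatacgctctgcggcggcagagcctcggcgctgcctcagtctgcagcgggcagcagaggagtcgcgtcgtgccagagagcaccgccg
Rph3a: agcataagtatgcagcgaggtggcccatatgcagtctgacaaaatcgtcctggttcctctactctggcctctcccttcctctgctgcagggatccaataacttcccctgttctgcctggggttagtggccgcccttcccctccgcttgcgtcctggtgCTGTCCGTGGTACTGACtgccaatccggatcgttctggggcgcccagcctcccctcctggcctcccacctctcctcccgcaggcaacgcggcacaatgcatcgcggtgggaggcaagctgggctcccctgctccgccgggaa
Unc13a: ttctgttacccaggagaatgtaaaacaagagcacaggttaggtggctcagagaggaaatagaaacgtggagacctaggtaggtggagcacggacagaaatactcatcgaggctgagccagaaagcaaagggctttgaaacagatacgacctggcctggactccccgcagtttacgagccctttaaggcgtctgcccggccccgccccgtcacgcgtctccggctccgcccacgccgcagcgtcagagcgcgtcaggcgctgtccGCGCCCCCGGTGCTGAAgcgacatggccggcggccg
A match of letters is no evidence of binding, and elements outside these windows were not searched. *Snap25*, *Vamp2*, *Syt4*, *Syt5*, *Syt7*, *Syt13*, *Doc2b*, *Syngr3* and *Rims2* have no entry in the table.

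The intensities of 19 markers of neurons and 12 of apical progenitors summed to at least 69134 and 35439 on every array. No array of another tissue was at hand, so these sums describe the arrays and do not test the brain label. *Rest* itself read 163.1, 216.7, 84.4 and 133.7 on *Cre+, Rest GTi/GTi* arrays 1 to 4, against 170.1, 271.8, 211.1 and 198.3 on control arrays 1 to 4 (log2 fold change -0.51, standard error 0.25, limma adjusted p = 0.758). The groups overlap, and the position of the probes with respect to the trap cassette was not at hand. Over all 18193 genes, 39 were called higher and 2 lower at an adjusted p under 0.05, among them 8 of 10 listed microglial genes, all higher. The arrays stood apart in other tissue. The summed intensity of 12 mesenchymal genes was 11645 and 16239 on *Cre+, Rest GTi/GTi* arrays 1 and 2 and 1546 and 1412 on arrays 3 and 4, against 1263 to 2243 on the controls. That of 10 *Hox* genes, which mark hindbrain and spinal cord, ran from 77.0 to 2014 on *Cre+, Rest GTi/GTi* arrays and from 111.8 to 668.9 on controls. Y-linked genes gave signal on each *Cre+, Rest GTi/GTi* array and on 2 of the controls.

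None of the 32 vesicle and release genes was called in either direction. Adjusted p (limma, Benjamini-Hochberg over all probe sets) ran from 0.744 for *Syt13* to 0.999, while 0.214% of all genes were called higher and 0.011% lower. At an unadjusted p under 0.05 the count was also 0 of 32, where 3.94% of all genes passed higher and 3.03% lower. In no member did the 4 *Cre+, Rest GTi/GTi* arrays lie clear of the 4 controls, which happened upward in 2.48% and downward in 2.15% of all genes. Of the 32 log2 fold changes 18 lay above 0 and 14 below, with a median of 0.012 beside -0.0014 over all genes, and they ran from -0.23 for *Syt13* to 0.28 for *Rims1*. All fold changes are on the scale of the normalized intensity plus 16, which understates the change of dim genes.

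The intervals say how large a difference could have gone unseen. In the brightest probe set, the 95% interval of the fold change lay within 2 fold of equality for 32 of 32 genes. It lay within 1.5 fold for 31, *Rims1* being the exception. Within 1.3 fold the count was 20. These bounds hold for intensity plus 16, so for a dim gene such as *Sv2c* (control mean 16.3) those of the intensity itself are wider. Of the other 12, the intervals of *Snap25*, *Syt4*, *Cplx1*, *Rims1* and *Unc13a* reached past 1.3 fold only upward. Those of *Napb*, *Syt13*, *Rph3a* and *Bsn* did so only downward, and those of *Syt5*, *Sv2c* and *Rab3a* both ways. Another probe set of the same gene can reach further. The log2 interval of 1 of *Cplx2* (mean intensity 445.4) ran from -0.4 to 0.68. That of 1 of *Rab3c* (340.7) ran from -0.15 to 0.66, and both pass 1.5 fold upward. In whole brain tissue, a lower level cannot be told apart from fewer cells of the type that expresses the gene, nor a higher level from more of them. The intervals bound the level in whole brain only. A change confined to progenitors could be larger than these bounds and was not measured apart.

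**Figure D1:**
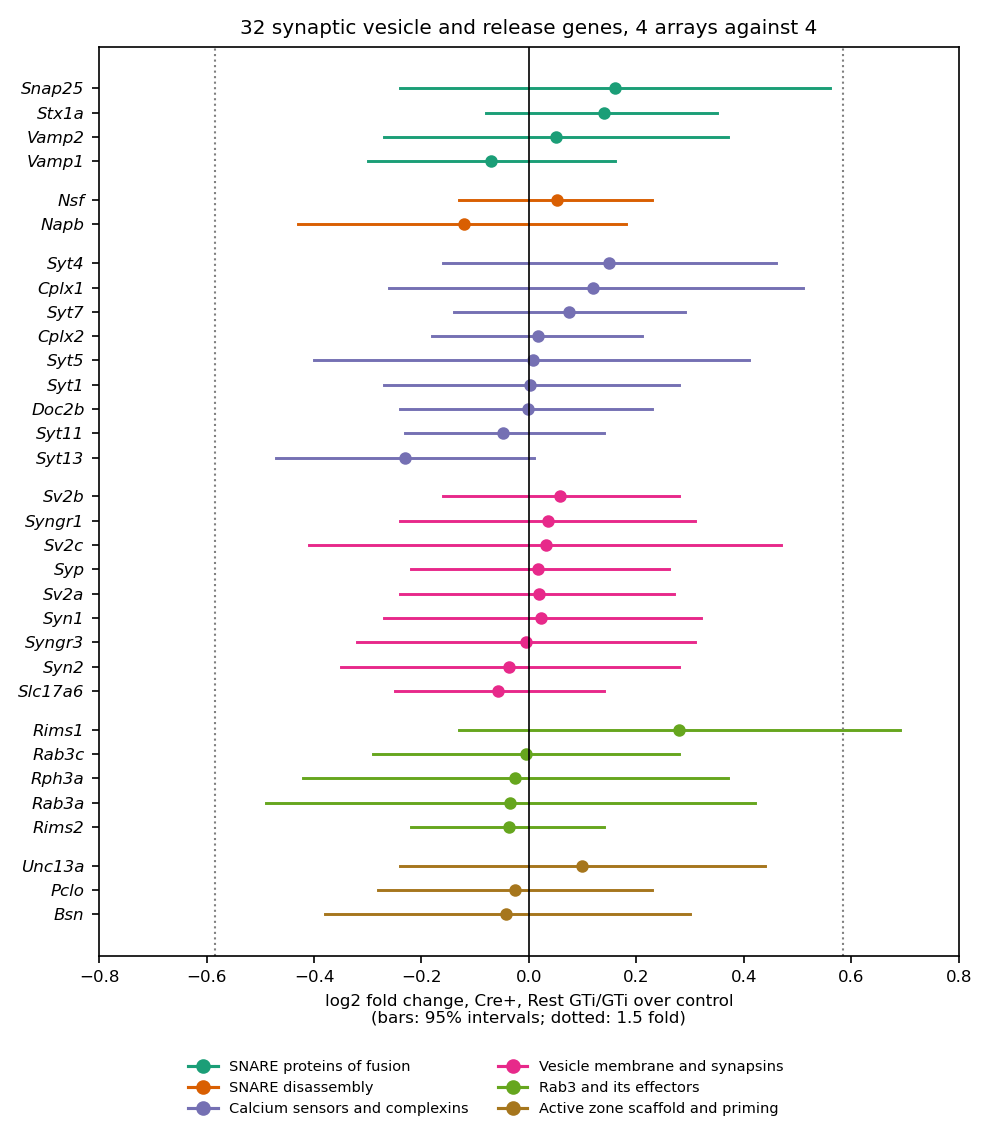
Log2 fold change (*Cre+, Rest GTi/GTi* over control, horizontal axis) of each of the 32 genes, grouped and coloured by role, with dots for the estimate and bars for the 95% interval from limma (n = 4 arrays per genotype). All 32 bars cross 0, and the bar of *Rims1* alone crosses the dotted line at 1.5 fold.

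Fusion is carried out by SNARE proteins, of which 4 are among the 32 genes. *Snap25*, a plasma membrane SNARE that is cut by botulinum toxins and a long-used example of a REST target, read 1041.0, 1719.7, 1860.2 and 1692.9 on *Cre+, Rest GTi/GTi* arrays 1 to 4, against 1516.7, 1273.8, 1374.0 and 1363.7 on the controls. Arrays 2 to 4 of the *Cre+, Rest GTi/GTi* group lay above every control and array 1 below every control. The means were 1578.5 ± 366 and 1382 ± 100.4 (SD, n = 4 each), a log2 fold change of 0.16 with a 95% interval from -0.24 to 0.56 (limma adjusted p = 0.917). *Stx1a*, syntaxin 1A, its partner in the plasma membrane, read 676.9, 730.3, 811.2 and 768.6 on *Cre+, Rest GTi/GTi* arrays, against 713.1, 586.0, 733.7 and 682.4 on controls (0.14, interval -0.08 to 0.35). The 2 highest of the 8 values were *Cre+, Rest GTi/GTi* arrays and the lowest was a control, with overlap between them.

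The SNAREs of the vesicle membrane are the synaptobrevins. *Vamp2*, the main one of forebrain synapses, averaged 605.1 ± 114 on *Cre+, Rest GTi/GTi* arrays and 578.0 ± 57.4 on controls (0.05, interval -0.27 to 0.37), and its *Cre+, Rest GTi/GTi* values, from 471.4 to 741.8, spanned beyond both ends of the controls, from 503.3 to 640.1. *Vamp1*, used most in brainstem, spinal cord and motor nerve endings of the adult, read 66.5, 61.3, 72.5 and 62.4 on *Cre+, Rest GTi/GTi* arrays, against 87.5, 64.4, 65.9 and 62.9 on controls (-0.07, interval -0.30 to 0.16). Apart from 1 high control, the 7 other values lay between 61.3 and 72.5.

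After fusion, the ATPase NSF and its SNAP adaptors take the SNARE complex apart. *Nsf* averaged 1073.6 ± 67.9 on *Cre+, Rest GTi/GTi* arrays and 1034.4 ± 69.7 on controls, with a log2 fold change of 0.05 (interval -0.13 to 0.23). *Napb*, the brain form of the adaptor (beta-SNAP), read 451.3, 569.5, 655.5 and 673.6 on *Cre+, Rest GTi/GTi* arrays, against 691.4, 559.0, 636.3 and 654.0 on controls (-0.12, interval -0.43 to 0.18). Only the first *Cre+, Rest GTi/GTi* array lay below the range of the controls.

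**Figure D2:**
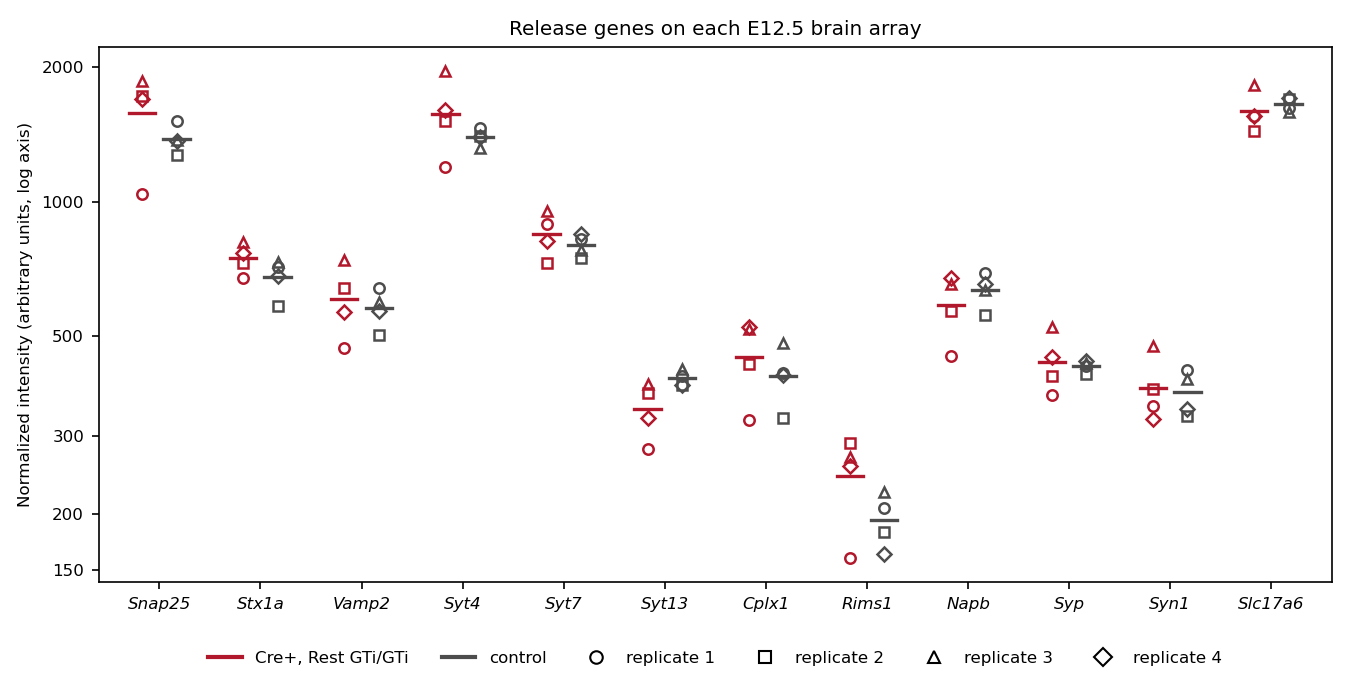
Normalized intensity (vertical, log axis, arbitrary units) of 12 of the 32 genes on each array, with *Cre+, Rest GTi/GTi* in red left of control in grey, symbols for the replicate number and horizontal lines for the mean of 4 arrays. *Snap25* shows 3 red symbols above all grey ones and 1 (replicate 1, 1041.0) below them, and heights of different genes cannot be compared because probe sets differ in brightness.

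Synaptotagmins and Doc2b bind calcium or phospholipid through C2 domains, and complexins hold the SNARE complex until calcium arrives. *Syt1*, the fast calcium sensor of forebrain synapses, averaged 1265.2 ± 163 on *Cre+, Rest GTi/GTi* arrays and 1262.2 ± 146 on controls (0.00, interval -0.27 to 0.28). *Syt4*, a synaptotagmin of dense-core vesicles that binds little calcium and is known as a REST target, read 1198.6, 1517.3, 1956.7 and 1603.3 on *Cre+, Rest GTi/GTi* arrays, against 1461.3, 1402.0, 1317.9 and 1394.5 on controls (0.15, interval -0.16 to 0.46). The order was that of *Snap25*, with the first *Cre+, Rest GTi/GTi* array under all controls and the other 3 above them. *Syt7*, a slow sensor of high affinity, read 892.5, 728.5, 955.3 and 815.6 on *Cre+, Rest GTi/GTi* arrays, against 826.0, 750.2, 781.4 and 847.7 on controls (0.07, interval -0.14 to 0.29). Here *Cre+, Rest GTi/GTi* arrays 1 and 3 were above the controls and array 2 below them.

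*Syt13*, an atypical synaptotagmin that does not bind calcium, had the smallest p of the 32 genes. It read 279.8, 374.5, 391.1 and 328.1 on *Cre+, Rest GTi/GTi* arrays, against 408.4, 389.0, 423.4 and 389.7 on controls. In this gene 3 of the 4 *Cre+, Rest GTi/GTi* arrays lay below every control and the third lay just inside their range. The means were 343.4 ± 50.1 and 402.6 ± 16.5 (SD, n = 4 each), a log2 fold change of -0.23 (standard error 0.11, interval -0.47 to 0.01, limma adjusted p = 0.744). Without the first *Cre+, Rest GTi/GTi* array the difference was -0.14.

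The other calcium sensors differed less. *Syt5* averaged 127.4 ± 39.0 on *Cre+, Rest GTi/GTi* arrays and 123.1 ± 9.81 on controls, so that its *Cre+, Rest GTi/GTi* values, from 93.0 to 176.1, were spread far wider than the controls, from 113.1 to 136.3. *Syt11*, which binds no calcium and acts in vesicle recycling, gave -0.05 (interval -0.23 to 0.14) and *Doc2b*, a high-affinity sensor of spontaneous release, 0.00 (interval -0.24 to 0.23). *Cplx1* read 324.7, 433.0, 518.7 and 523.5 on *Cre+, Rest GTi/GTi* arrays, against 413.1, 328.0, 483.5 and 409.0 on controls (0.12, interval -0.26 to 0.51). Its lowest and its highest value both came from *Cre+, Rest GTi/GTi* arrays. *Cplx2* averaged 704.0 ± 54.6 on *Cre+, Rest GTi/GTi* arrays and 696.2 ± 58.7 on controls (0.02, interval -0.18 to 0.21).

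Among proteins of the vesicle membrane, *Syp*, synaptophysin, the usual histological marker of synapses, read 369.7, 408.2, 524.4 and 450.0 on *Cre+, Rest GTi/GTi* arrays, against 428.7, 412.3, 435.5 and 440.5 on controls. Its *Cre+, Rest GTi/GTi* values lay on both sides of a narrow control range, and the log2 fold change was 0.02 (interval -0.22 to 0.26). Its relatives *Syngr1* and *Syngr3*, the synaptogyrins, gave 0.04 (interval -0.24 to 0.31) and -0.01 (interval -0.32 to 0.31). The SV2 glycoproteins, which bear on calcium-triggered release and serve botulinum toxin A as receptors, gave 0.02 (*Sv2a*), 0.06 (*Sv2b*) and 0.03 (*Sv2c*). *Sv2c* was the dimmest of the 32, with 9.5 to 23.2 on *Cre+, Rest GTi/GTi* arrays, against 10.5 to 27.8 on controls, near the added constant of 16, so that its fold change is the most compressed.

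Synapsins tie vesicles into the reserve pool. *Syn1*, whose window above holds the closest match to the RE1 letters, read 350.0, 381.6, 475.0 and 326.0 on *Cre+, Rest GTi/GTi* arrays, against 420.7, 332.5, 401.8 and 344.7 on controls (0.02, interval -0.27 to 0.32). The groups overlapped over most of their range. *Syn2* averaged 138.4 ± 27.6 on *Cre+, Rest GTi/GTi* arrays and 141.4 ± 18.1 on controls (-0.04, interval -0.35 to 0.28). *Slc17a6*, the vesicular glutamate transporter VGLUT2, which fills vesicles of early glutamatergic neurons, read 1554.3, 1439.1, 1827.0 and 1551.6 on *Cre+, Rest GTi/GTi* arrays, against 1619.6, 1701.0, 1589.0 and 1704.1 on controls (-0.06, interval -0.25 to 0.14). In it 3 of the 4 *Cre+, Rest GTi/GTi* arrays lay below the controls and the third above them.

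Rab3 is the small GTPase of the vesicle surface that tethers it through rabphilin and RIM. *Rab3a* averaged 1190 ± 272 on *Cre+, Rest GTi/GTi* arrays and 1206.4 ± 203.5 on controls. Its standard error was the widest of the 32 (0.20), beside 0.12 for its other probe set. *Rab3c* gave 0.00 (interval -0.29 to 0.28). *Rph3a*, rabphilin, ran from 107.0 to 162.4 on *Cre+, Rest GTi/GTi* arrays and from 102.7 to 177.5 on controls (-0.02, interval -0.42 to 0.37), and its window was the second closest to the RE1 letters. *Rims2*, a RIM protein, gave -0.04 (interval -0.22 to 0.14). *Rims1*, the RIM protein that gathers calcium channels and vesicles at the release site, read 159.9, 289.1, 269.3 and 256.2 on *Cre+, Rest GTi/GTi* arrays, against 206.5, 182.6, 224.4 and 163.1 on controls. Arrays 2 to 4 of the *Cre+, Rest GTi/GTi* group were above all controls and array 1 below them, as with *Snap25* and *Syt4*. The means were 243.6 ± 57.4 and 194.1 ± 26.9 (SD, n = 4 each), and the log2 fold change, the highest of the 32, was 0.28 (standard error 0.18, interval -0.13 to 0.69, limma adjusted p = 0.821).

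At the active zone, *Unc13a* (Munc13-1), which opens syntaxin and so makes vesicles ready to fuse, averaged 193.0 ± 35.7 on *Cre+, Rest GTi/GTi* arrays and 178.2 ± 26.0 on controls (0.10, interval -0.24 to 0.44). *Bsn* and *Pclo*, the giant scaffolds Bassoon and Piccolo, gave -0.04 (interval -0.38 to 0.30) and -0.03 (interval -0.28 to 0.23). By role, the median log2 fold change was 0.09 for the 4 SNAREs and between -0.04 and 0.02 for the other 5 groups.

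The larger pattern lay between arrays of 1 genotype. Averaged over the 32 genes, the log2 deviation from the mean of the controls came to -0.20, -0.03, 0.22 and 0.09 on *Cre+, Rest GTi/GTi* arrays 1 to 4, against 0.10, -0.09, 0.04 and -0.05 on control arrays 1 to 4. The *Cre+, Rest GTi/GTi* group thus held both the lowest and the highest array. Its array 1 was the lowest of the 8 for 19 of the 32 genes and its array 3 the highest for 19, where 15.8% of all genes were lowest on array 1 and 13.3% highest on array 3. On array 1, 27 genes lay below the control mean, and on array 3, 30 lay above it. The low array took in every role: the 6 role groups averaged between -0.29 (active zone) and -0.16 (vesicle membrane) there, and between 0.09 (SNARE disassembly) and 0.27 (SNAREs) on array 3.

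**Figure D3:**
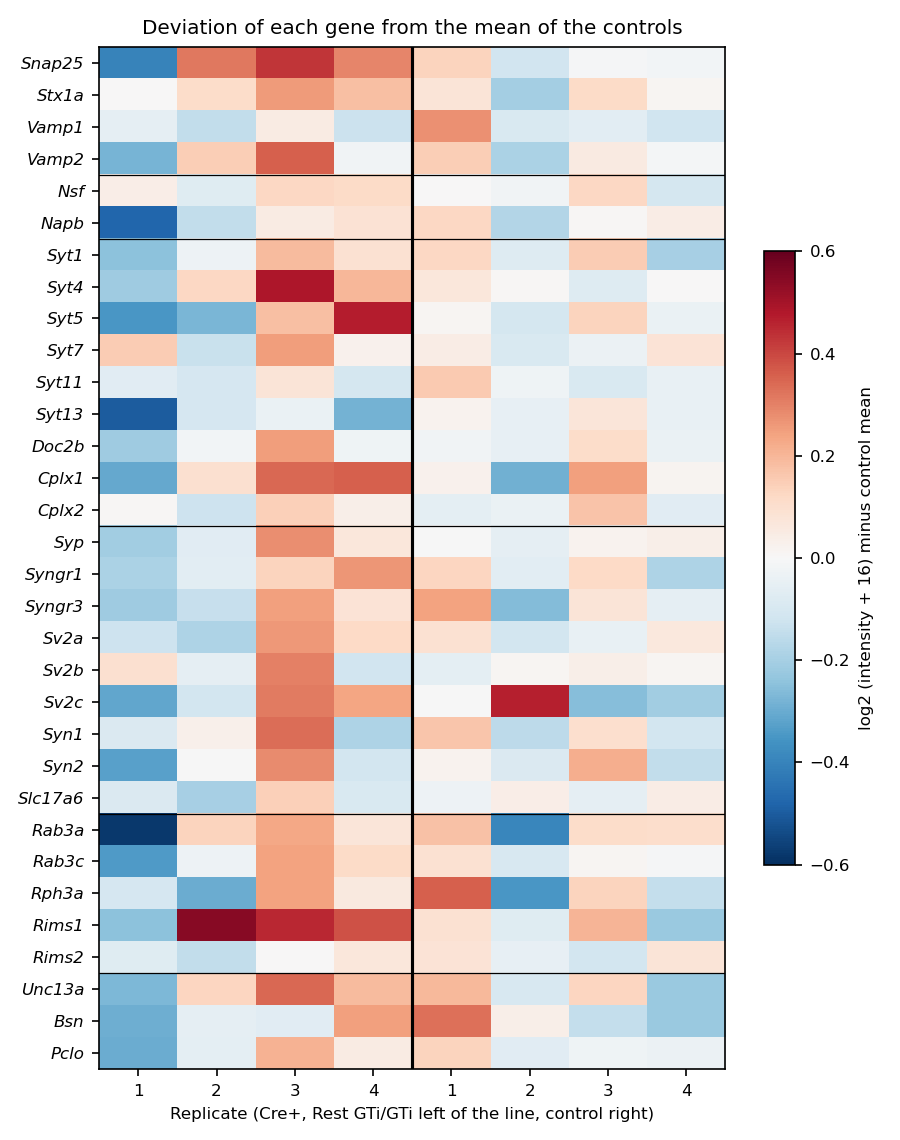
Log2 (normalized intensity + 16) minus the mean of the 4 controls (colour, red higher and blue lower) for the 32 genes (rows, in order of role) on the 8 arrays (columns, *Cre+, Rest GTi/GTi* left of the black line). The first column is mostly blue (27 of 32 genes below the control mean) and the third mostly red (30 of 32 above), with columns 2 and 4 in between.

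Neuronal genes with no part in release followed the same arrays. The mean deviation of 19 such genes (*Tubb3*, *Map2*, *Dcx* and others) was -0.27, 0.00, 0.18 and 0.07 on *Cre+, Rest GTi/GTi* arrays 1 to 4, against 0.11, -0.06, -0.02 and -0.04 on controls. Their summed intensity ran from 69134 to 92612 on *Cre+, Rest GTi/GTi* arrays and from 79347 to 88663 on controls, and none of the 19 was under 16 throughout. That is the order of the vesicle genes within the *Cre+, Rest GTi/GTi* group. Apical progenitor genes, 12 in number, deviated by 0.08, -0.14, -0.08 and -0.03 on *Cre+, Rest GTi/GTi* arrays, against -0.02, 0.05, -0.03 and 0.00 on controls. The mesenchymal genes stood 2.18 and 3.12 above the controls on arrays 1 and 2, and were at -0.10 and -0.28 on arrays 3 and 4. The *Hox* genes deviated by -0.54, 0.68, 2.19 and 1.34 on *Cre+, Rest GTi/GTi* arrays 1 to 4, against 0.79, -0.34, -0.42 and -0.04 on controls, so they too were lowest on array 1 and highest on array 3 of the *Cre+, Rest GTi/GTi* group. Microglial genes stood between 1.2 and 1.34 above the controls on all 4 *Cre+, Rest GTi/GTi* arrays, with sums from 1834 to 2022.5, against 575.6 to 682.5 on controls, and *Itgam* was under 16 throughout. The part of these other tissues in the values of the vesicle genes was not tested.

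**Figure D4:**
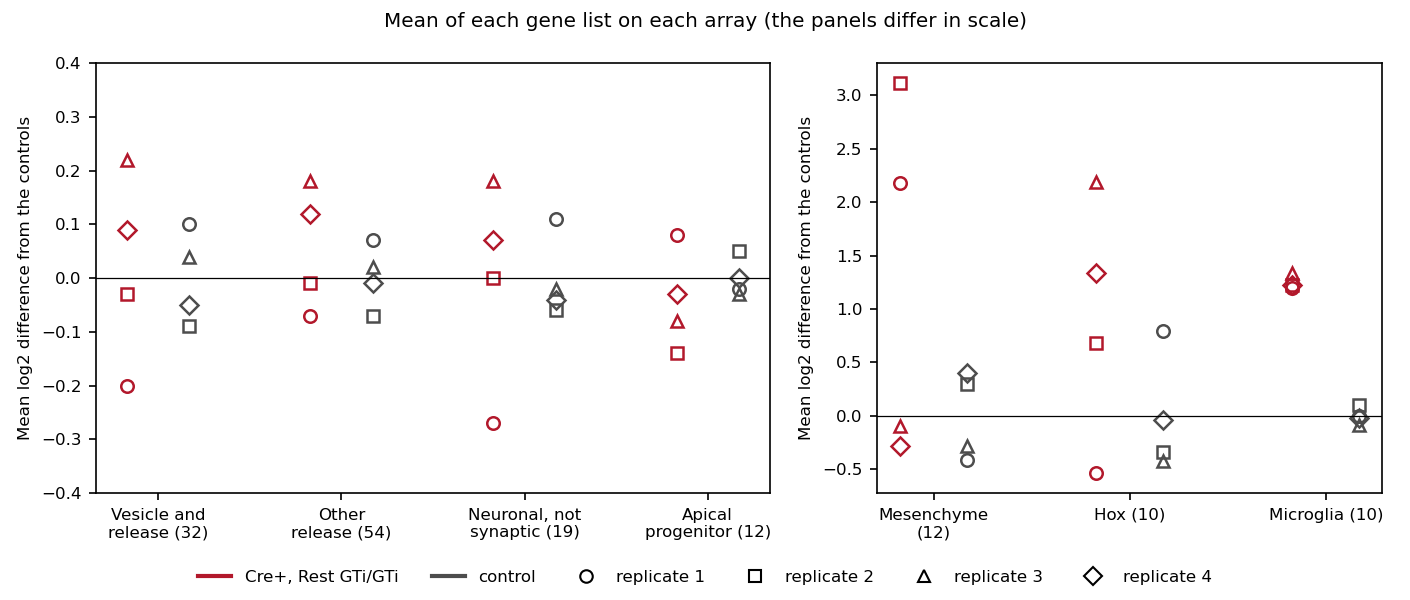
Mean log2 deviation from the controls (vertical axis, 1 scale per panel) of 7 gene lists, with the number of genes in brackets, on each array (*Cre+, Rest GTi/GTi* in red left of control in grey, symbols for the replicate number). The release genes, the other neuronal genes and the *Hox* genes put replicate 1 lowest and replicate 3 highest among the red symbols, and mesenchyme is high on replicates 1 and 2.

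Because array 1 of the *Cre+, Rest GTi/GTi* group was the low one, the counts were repeated without it. Leaving out the lowest array raises the mean fold change of the members by construction, though not that of every member. The values that follow are therefore a description and no independent support. Then *Snap25*, *Rims1* and *Syt4* lay above all 4 controls, 3 of 32 genes where 3.89% of all genes did so upward, and 0 of 32 lay below, where 3.82% did so. The same 3 passed an unadjusted p under 0.05 (higher in 3.72% and lower in 3.02% of all genes). *Snap25* then gave a log2 fold change of 0.34 (standard error 0.08, limma adjusted p = 0.486), *Rims1* 0.46 (standard error 0.11, limma adjusted p = 0.49) and *Syt4* 0.27 (standard error 0.10, limma adjusted p = 0.72). None of the 32 was called, while 0.159% of all genes were, and the median over the 32 was 0.066. With *Cre+, Rest GTi/GTi* arrays 3 and 4 only, which include the highest array, *Snap25*, *Rims1*, *Syt4* and *Syt5* passed an unadjusted p under 0.05 upward and 0 of 32 downward (3.91% and 2.49% of all genes), and neither any of the 32 nor any other gene was called. Both choices of arrays were made with earlier results of these data known, and both leave out the low array. Without array 3, the high one, the only member with an unadjusted p under 0.05 (limma) was *Syt13*, which was lower. On arrays 3 and 4 the summed *Hox* intensity was 2013.5 and 1116.7, against 111.8 to 668.9 on controls, and its part in the values was not tested.

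Each gene was represented by 1 probe set, while 87 probe sets in all read the 32 genes, 79 of them with a mean of at least 16. Of 25 genes with more than 1 such probe set, all of them lay on the same side of 0 in 15 and on both sides in 10. The second probe set of *Snap25* was dim (26.9 ± 4.59 on *Cre+, Rest GTi/GTi* arrays and 29.4 ± 4.26 on controls) and gave -0.08, where the bright one gave 0.16. That of *Rims1* gave 0.03 beside 0.28, that of *Syt4* 0.06 beside 0.15, and that of *Syt13* -0.11 beside -0.23. Without *Cre+, Rest GTi/GTi* array 1, the second probe sets of *Snap25*, *Rims1* and *Syt4* still overlapped the controls. The 3 further probe sets of *Syt1* all lay below 0, at -0.22, -0.20 and -0.17, while the brightest gave 0.00.

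At an unadjusted p under 0.05, 1 of the 87 probe sets was higher and 3 were lower, where 3.22% and 3.65% of all 45037 probe sets passed. The higher one reads *Syt7* (0.23), with 343.6 to 435.3 on *Cre+, Rest GTi/GTi* arrays, against 321.7 to 360.4 on controls. The lower ones read *Nsf* (-0.29), *Rims2* (-0.38) and *Syn2* (-0.38). That of *Rims2* was dim, with 12.2 to 27.8 on *Cre+, Rest GTi/GTi* arrays, against 23.4 to 37.2 on controls. That of *Syn2* was far under the added constant, with 0.6 to 3.3 on *Cre+, Rest GTi/GTi* arrays, against 5.6 to 8.8 on controls. Clear of the controls were 0 probe sets upward and 3 downward, where 1.87% and 2.14% of all probe sets were. These were the *Syn2* and *Nsf* probe sets and 1 of *Syt11*, which read 1322.9 to 1512.9 on *Cre+, Rest GTi/GTi* arrays, against 1514.8 to 1664.1 on controls. These counts lie near the shares over all probe sets, and none of the 87 was called at an adjusted p under 0.05.

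**Figure D5:**
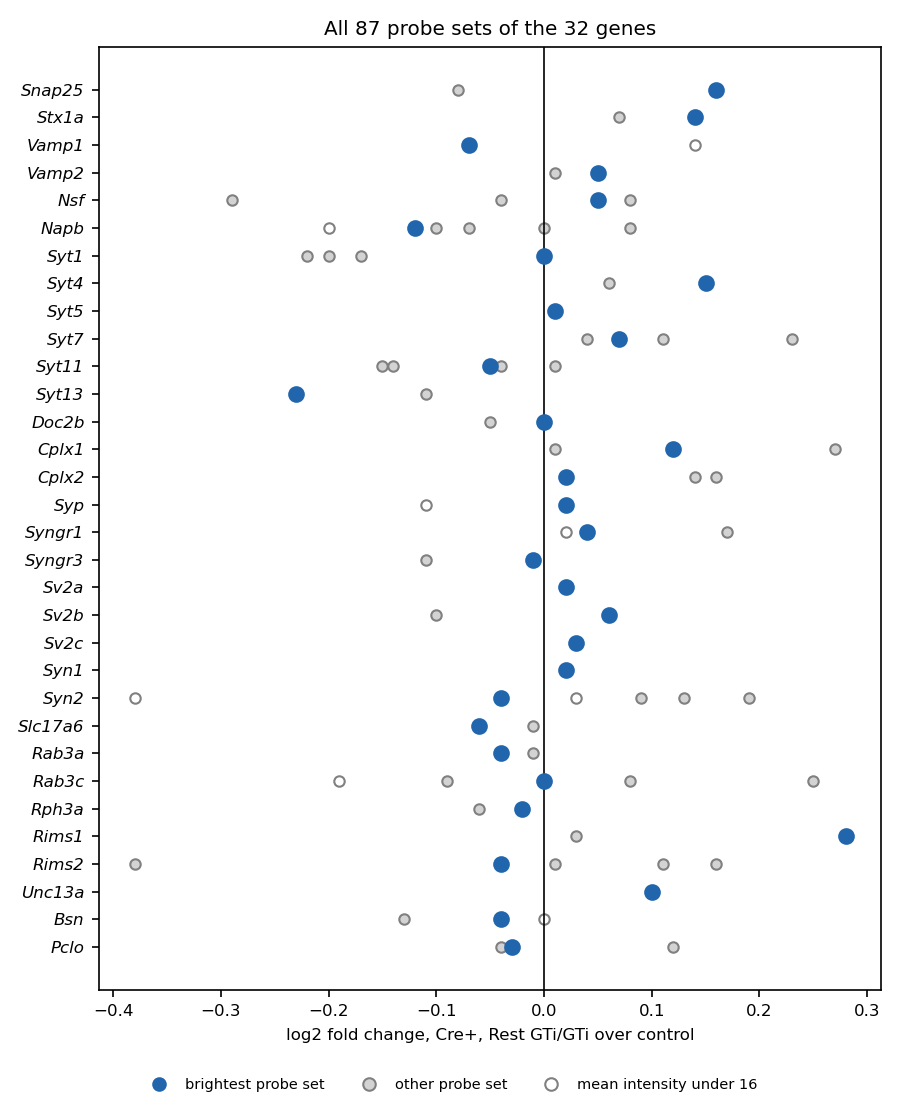
Log2 fold change (*Cre+, Rest GTi/GTi* over control, horizontal axis) of all 87 probe sets of the 32 genes (rows), with the brightest probe set of each gene in blue, others in grey and those with a mean intensity under 16 as open circles. *Rims2* spans from -0.38 to 0.16, but both ends come from dim probe sets (means 25.3 and 16.7). Its probe sets with means from 600.7 to 629.3 run from -0.04 to 0.11. In 10 of 25 genes the probe sets with a mean of at least 16 fall on both sides of 0.

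The vesicle cycle holds further genes, of which 54 were measured here. Of the 54, 35 lay above 0 and 19 below (median 0.045), and none was called. At an unadjusted p under 0.05, 4 of the 54 were higher and 2 lower, where 3.94% and 3.03% of all genes passed, and the 4 with the smallest p follow as a description. *Slc18a3*, the vesicular acetylcholine transporter, had the smallest p, with 18.6, 21.0, 28.1 and 30.5 on *Cre+, Rest GTi/GTi* arrays, against 5.7, 4.8, 2.3 and 12.6 on controls. Every *Cre+, Rest GTi/GTi* array lay above every control, at intensities near the added constant, and the log2 fold change was 0.87 (standard error 0.15, limma adjusted p = 0.151). *Slc18a2*, the vesicular monoamine transporter, lay below the controls throughout, with 289.4, 326.9, 341.4 and 324.4 on *Cre+, Rest GTi/GTi* arrays, against 400.5, 360.3, 382.3 and 381.1 on controls (-0.24, limma adjusted p = 0.563). *Sypl*, a relative of synaptophysin found outside neurons too, read 903.6, 854.4, 710.8 and 699.6 on *Cre+, Rest GTi/GTi* arrays, against 639.3, 639.7, 614.2 and 662.4 on controls (0.30, limma adjusted p = 0.595). Its 2 highest arrays were the 2 with high mesenchymal genes, and arrays 3 and 4 also lay above every control. The part of mesenchymal tissue in its values was not tested. *Ppfia4*, a liprin of the active zone, gave 0.46 (limma adjusted p = 0.665), with groups that overlapped. On the list of 54, *Cre+, Rest GTi/GTi* array 3 was again the highest, while array 1 was level with the lowest control, with mean deviations of -0.07, -0.01, 0.18 and 0.12 on *Cre+, Rest GTi/GTi* arrays, against 0.07, -0.07, 0.02 and -0.01 on controls.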

How the data were processed

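Brain RNA of *Cre+, Rest GTi/GTi* and control embryos was read on 8 arrays, 4 per genotype. The authors' methods state that AffyPLM was used for RMA, that values were put on the log2 scale, and that genotypes were compared by t-test, adjusted after Benjamini-Hochberg. The deposited intensity values per probe set are linear and start at 0, and array medians differ (40.9 to 68), which finished RMA output does not show, and the step that made them is not stated. They were therefore quantile normalized, 16 was added, and log2 was taken. That constant exceeded the mean intensity of 30.6% of probe sets. The number of arrays limits the precision, and Pearson correlations between arrays ran from 0.982 to 0.991.

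The table holds 45101 probe sets, of which 64 are Affymetrix control features, and the other 45037 were tested with limma 3.58.1 (lmFit, eBayes) in R 4.3.3, two-sided, adjusted by Benjamini-Hochberg over all of them and called at 0.05. By GEO's platform annotation 34945 probe sets read 1 gene, 932 read several, and 9160 are unnamed. Each gene was taken from its probe set with the highest mean. Scripts were tested on simulated data. All 32 members are named. Values per array were given for *Snap25*, *Syp*, any member called or with groups that do not overlap, and the 10 members with the smallest p, and of the other lists for *Rest* and up to 4 genes with the smallest p. *Syn1*, and single probe sets of *Syt7*, *Syn2*, *Rims2*, *Rab3a* and *Syt11*, were added to these after their values were seen. Members and lists were chosen with earlier results of these data known. Alternatives were other constants, scalings, probe set rules, variance models, the methods' t-test, a replicate block, array weights, sex of the arrays and left-out arrays.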

Additional observations from a re-analysis of the deposited data

Results flagged for a closer look

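In 5 of the 66 groups of 4 arrays examined (the 32 genes and their mean, in each genotype), 1 array stood far from the other 3, measured as its gap to the nearest array over the whole range of the group. Chance alone gives such a gap in about 1 in 20 groups. *Snap25* was low on *Cre+, Rest GTi/GTi* array 1 (gap 0.837 of the range). The other 4 were controls. *Vamp1* was high on control array 1 (0.864), *Doc2b* (0.835) and *Cplx2* (0.885) were high on control array 3, and *Rab3a* was low on control array 2 (0.874). The other probe set of *Rab3a* was not low there, with 688.5 on control array 2 in a control range of 657.3 to 760.8.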

How the results depend on the processing

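Under 24 alternatives, the methods' t-test among them, 0 of the 32 genes were called, and the lowest adjusted p of any was 0.486. In 8 genes the sign of the fold change held in all 24 (*Snap25*, *Stx1a*, *Syt4*, *Syt7*, *Cplx1*, *Rims1* and *Unc13a* above 0, *Syt13* below), and in 24 genes it changed in at least 1. With *Cre+, Rest GTi/GTi* arrays 3 and 4 only, which hold less mesenchymal and more *Hox* signal than arrays 1 and 2, the median over the 32 genes was 0.15, beside 0.012 over all 4 arrays. Leaving out 1 array at a time, the median ran from -0.061 (without *Cre+, Rest GTi/GTi* array 3) to 0.066 (without array 1). It was -0.033 with a common median (all genes -0.043) and 0.074 without scaling (all genes 0.05). *Syt13* passed an unadjusted p under 0.05 with a common median, a constant of 50, trend and robust variances, and without *Cre+, Rest GTi/GTi* array 2 or array 3.

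Replicate numbers did not pair the arrays: residual correlations ran from -0.13 to 0.00676 between arrays of the same number and from -0.0611 to 0.106 between arrays of different numbers, and 0 of 8 arrays correlated best with its own number. With a replicate block 0 of the 32 genes were called and the median was 0.012, while over all genes 0 were called, beside 41 without the block. With 4 arrays per genotype the intervals of 12 of the 32 genes, read from the brightest probe set, reach past 1.3 fold in 1 direction or both. A difference of that size remains possible there, and in some other genes a further probe set reaches past it too. *Sv2c* lies near the added constant.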
